A study of Mus musculus with 10 samples.

Results

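The 9 genes described here are the kallikreins Klk5, Klk6, Klk7, Klk8, Klk10, Klk11, Klk13 and Klk14 and the gene of their inhibitor, Spink5. They were chosen by symbol, 9 of the 55487 genes in the deposited tables, and all 9 held enough counts to be tested. Skin RNA was sequenced from 5 wild type mice (WT) and 5 mice whose genotype is labelled Hamp1-KI ker (KI), in a series on hepcidin overexpression in skin. The labels do not spell out "ker", and give no promoter or Cre that drives the knock-in and no strain, age, sex, body site or treatment. Library titles begin with EAS37 (3 WT and 2 KI) or EAS42 (2 WT and 3 KI), a prefix whose meaning the labels do not give.

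Kallikreins are secreted serine proteases. Keratinocytes of the upper epidermis release them as inactive precursors between the outermost cells, where they activate one another and cut the corneodesmosomes that hold dead cells together, so that the cells are shed. Spink5 encodes LEKTI, a secreted protein of many inhibitory domains that restrains these proteases. Loss of LEKTI causes Netherton syndrome, with overactive kallikreins and a defective skin barrier.

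All 8 kallikrein genes lie on the plus strand of chromosome 7 (GRCm38, GENCODE M21), within 160.8 kb between 43690418 and 43851181. The 10 protein-coding genes in that span are all kallikreins, in the order Klk14, Klk13, Klk12, Klk11, Klk10, Klk9, Klk8, Klk7, Klk6 and Klk5. Start regions of 4 of them, from RefSeq (GRCm38.p6, 250 bases before to 50 after a start, plus strand), are printed because the genes share this span but had unlike responses. Transcripts of Klk13 and Klk7 were higher in KI skin, and those of Klk5 and Klk14 did not pass the test. Of these 4, only Klk14 and Klk13 lie next to each other. Capitals mark CCACCC, the core of a site for factors of the KLF family, or its reverse complement GGGTGG. The windows are chr7:43712317-43712616 for Klk13, chr7:43811044-43811343 for Klk7, chr7:43842019-43842318 for Klk5 and chr7:43690168-43690467 for Klk14.
Klk13: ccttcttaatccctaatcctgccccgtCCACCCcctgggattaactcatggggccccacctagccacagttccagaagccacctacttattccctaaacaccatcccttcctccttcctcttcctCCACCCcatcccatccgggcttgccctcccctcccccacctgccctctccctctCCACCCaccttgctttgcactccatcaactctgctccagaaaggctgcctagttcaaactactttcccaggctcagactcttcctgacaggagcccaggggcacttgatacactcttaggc
Klk7: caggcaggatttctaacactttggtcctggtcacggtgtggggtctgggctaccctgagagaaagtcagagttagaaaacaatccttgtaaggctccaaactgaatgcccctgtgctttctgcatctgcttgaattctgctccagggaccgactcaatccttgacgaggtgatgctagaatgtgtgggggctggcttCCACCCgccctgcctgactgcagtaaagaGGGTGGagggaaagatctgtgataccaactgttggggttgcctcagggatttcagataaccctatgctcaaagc
Klk5: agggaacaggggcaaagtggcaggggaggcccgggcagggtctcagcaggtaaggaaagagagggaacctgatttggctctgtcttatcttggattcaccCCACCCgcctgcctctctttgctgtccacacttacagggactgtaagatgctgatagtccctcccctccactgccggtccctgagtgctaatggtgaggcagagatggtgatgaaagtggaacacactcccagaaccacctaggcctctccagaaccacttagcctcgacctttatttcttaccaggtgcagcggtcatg
Klk14: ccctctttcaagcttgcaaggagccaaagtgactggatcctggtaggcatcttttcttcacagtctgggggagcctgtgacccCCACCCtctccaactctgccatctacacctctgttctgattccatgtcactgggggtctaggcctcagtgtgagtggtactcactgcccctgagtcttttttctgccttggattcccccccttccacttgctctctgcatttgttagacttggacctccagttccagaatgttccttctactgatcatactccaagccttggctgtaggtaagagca

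RefSeq gives 10 such windows for the 8 kallikreins, since Klk6 and Klk11 have 2 starts each. CCACCC, searched on both strands, was found in 6 of these 10 windows and in 31.5% of all 32851 windows of the same length. Klk13 held 3 matches, at 223, 125 and 71 bases before the start, and Klk7 held 2. The matches were found before genes that rose and before genes that did not pass the test: Klk5 has a match 150 bases and Klk14 a match 167 bases before the start. No CCACCC match was found in either Klk6 window, in the Klk8 window or in the later Klk11 window, although these genes rose. The windows printed above all hold a match. The C/EBP letters TTGCNNAA were found in 2 windows, both of Klk11 (10.8% of all windows). The AP-1 letters TGANTCA (7.81% of all windows), the grainyhead letters AACNGGTT (2.09%) and the TATA box TATAAA (13.6%) were found in 0 of the 10. In these windows no match of one motif overlapped a match of another, and a match is a description of the sequence only.

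Libraries held 18.96 M to 26.43 M expected counts. Hamp, the hepcidin gene, stood at 1.86 to 3.33 CPM in WT and 85.6 to 169 CPM in KI libraries, where CPM is the count scaled to a common library total after TMM adjustment. The basal keratinocyte keratins Krt5 and Krt14 and the suprabasal keratin Krt10 were present in every library, with Krt10 at 1099 CPM or more. Libraries differed by title prefix in the level of some marker lists. The mean log2 CPM of 14 hair shaft and sheath genes was 2.86 to 8.47 in the 5 EAS37 libraries and -1.48 to -0.04 in the 5 EAS42 libraries. It was highest in WT 2 (8.47) and KI 2 (6.28). The level of 6 activated keratinocyte genes was also higher in EAS37 within each genotype, at 4.56 to 5.97 against 2.91 to 3.50 in WT and 9.17 to 9.55 against 7.46 to 8.53 in KI libraries. These are bulk skin samples, so more or fewer cells of a type and more or less RNA per cell cannot be told apart.

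In KI skin 6 of the 8 kallikreins rose, Klk6, Klk7, Klk8, Klk10, Klk11 and Klk13, and 0 fell. Klk5, Klk14 and Spink5 did not pass the test (edgeR quasi-likelihood test, Benjamini-Hochberg adjusted p under 0.05 over 17321 genes). Of all genes tested, 15.6% were called higher and 30.9% in either direction. The median log2 fold change was 1.77 over the 8 kallikreins, 1.63 over the 9 genes and -0.0093 over all genes tested. KI and WT libraries did not overlap, with KI higher, for 5 of the 9 genes, Klk6, Klk7, Klk8, Klk11 and Klk13, against 10.7% of all genes tested. For 0 of the 9 did they separate with KI lower, against 9.65% of all genes.

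**Figure D1:**
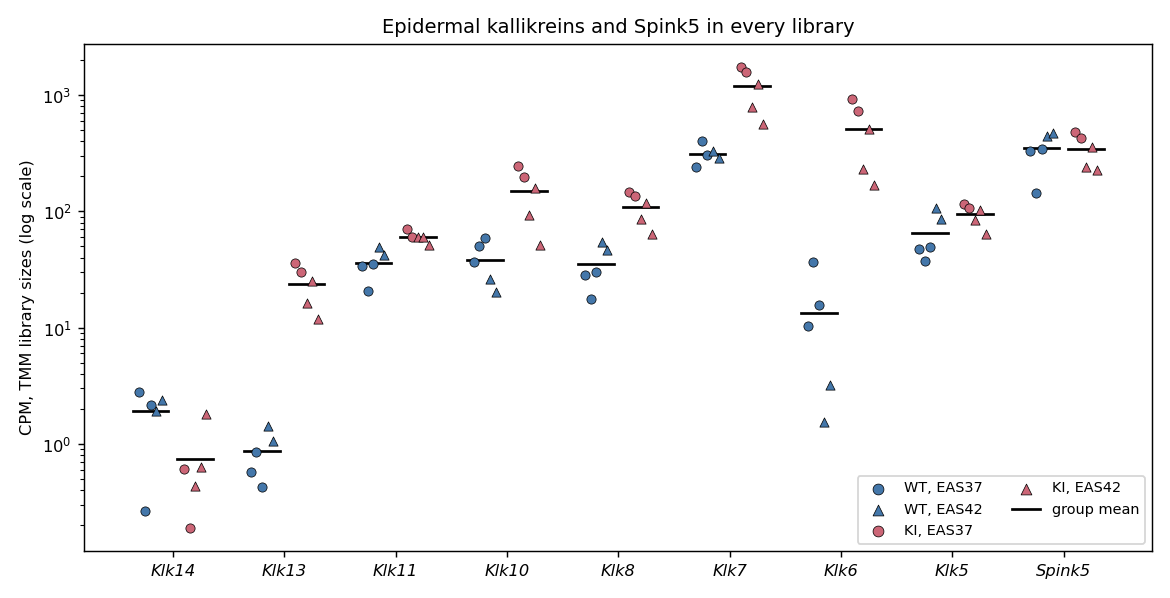
CPM of each gene (log axis) in every library, kallikreins in chromosomal order and then Spink5. Circles are EAS37 and triangles EAS42 libraries, colours are genotypes, and bars are group means; Klk6 and Klk13 show the widest separation of KI from WT, and the Spink5 means are 347 CPM in WT and 346 in KI.

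Klk7 encodes the chymotrypsin-like protease of the stratum corneum, which cuts corneodesmosin and desmocollin. It stood at 238, 405, 307, 328 and 289 CPM in WT 1 to 5 and at 1735, 1578, 788, 1247 and 559 CPM in KI 1 to 5. Every KI library was above every WT library, with KI 1 and KI 2 highest and KI 5 lowest. The means were 313 ± 61.2 and 1181 ± 502 CPM (SD, n = 5 each), a log2 fold change of 1.91 ± 0.30 (SE, with adjusted p = 0.00195 in edgeR).

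Klk5, a trypsin-like protease that activates itself and the precursors of Klk7 and Klk14, did not pass. It stood at 47.8, 37.7, 49.6, 106 and 85.5 CPM in WT and at 115, 106, 84.3, 102 and 64.3 CPM in KI libraries. The groups overlapped, with WT 4 and WT 5 inside the KI range and the other WT libraries below it. The means were 65.3 ± 29.1 and 94.4 ± 20.2 CPM (SD, n = 5 each), a log2 fold change of 0.53 ± 0.28 (SE, with adjusted p = 0.179 in edgeR). Without WT 4 it passed, at 0.77 (edgeR adjusted p = 0.0480).

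Klk14, another trypsin-like protease of the stratum corneum, was scarce. It stood at 2.82, 0.265, 2.18, 1.93 and 2.38 CPM in WT and at 0.606, 0.190, 0.436, 0.635 and 1.82 CPM in KI libraries. The groups overlapped, with WT 2 the only WT library inside the KI range, and KI 5 stood apart from the other KI libraries. The means were 1.92 ± 0.980 and 0.738 ± 0.632 CPM (SD, n = 5 each), and the log2 fold change was -1.39 ± 0.62 (SE, with adjusted p = 0.108 in edgeR). It passed as lower without WT 2 (-1.66, edgeR adjusted p = 0.0298), without KI 5 (-2.02, 0.0251) and with WT 2 and KI 2 both left out (-1.42, 0.0416). Its expected counts, 4.47 to 63.9 per library, were fractional in 9 of 10 libraries, and fractional values arise where reads fit more than 1 gene.

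Klk6, a trypsin-like protease best known from the nervous system, had the largest log2 fold change of the 9. It stood at 10.2, 36.4, 15.7, 1.55 and 3.21 CPM in WT and at 930, 728, 232, 507 and 167 CPM in KI libraries. Every KI library was above every WT library, although both groups spread widely. The means were 13.4 ± 14.0 and 513 ± 324 CPM (SD, n = 5 each), a log2 fold change of 5.26 ± 0.95 (SE, with adjusted p = 0.00490 in edgeR). Without WT 2, the WT library with the highest Klk6 level, it was 6.06, and with WT 2 and KI 2 both left out 5.90.

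Klk13, a trypsin-like protease of stratified epithelia, was low in WT skin, with 101 counts over the 5 libraries. It stood at 0.574, 0.847, 0.428, 1.44 and 1.05 CPM in WT and at 35.7, 29.8, 16.2, 25.1 and 11.9 CPM in KI libraries. The lowest KI library, KI 5, was far above the highest WT library, WT 4. The means were 0.869 ± 0.401 and 23.7 ± 9.72 CPM (SD, n = 5 each), and the 27.1-fold difference had a log2 value of 4.76 ± 0.41 (SE, with adjusted p = 0.000103 in edgeR), and it passed under all 24 other ways of processing that were run, between 3.79 and 5.77.

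Klk8, a trypsin-like protease also called neuropsin, stood at 28.4, 17.6, 30.2, 54.1 and 46.6 CPM in WT and at 145, 136, 85.3, 118 and 64.2 CPM in KI libraries. The groups did not overlap, though KI 5 was close to WT 4. The means were 35.4 ± 14.7 and 109.8 ± 34.3 CPM (SD, n = 5 each), and the log2 fold change was 1.63 ± 0.32 (SE, with adjusted p = 0.00567 in edgeR).

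Klk10, first known from normal breast epithelium as NES1, stood at 36.7, 49.96, 59.2, 26.2 and 20.3 CPM in WT and at 245, 198, 92.7, 157 and 51.5 CPM in KI libraries. KI 5 fell among the WT values, and the other 4 KI libraries were above them. The means were 38.4 ± 16.2 and 149 ± 78.0 CPM (SD, n = 5 each), and the log2 fold change was 1.95 ± 0.44 (SE, with adjusted p = 0.0102 in edgeR).

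Klk11, a trypsin-like protease also called hippostasin, was the smallest of the changes that passed. It stood at 34.0, 20.6, 35.1, 49.5 and 41.9 CPM in WT and at 70.3, 60.6, 59.99, 60.6 and 51.3 CPM in KI libraries. The groups were separate by a narrow margin between WT 4 and KI 5. The means were 36.2 ± 10.7 and 60.6 ± 6.71 CPM (SD, n = 5 each), and the log2 fold change was 0.74 ± 0.19 (SE, with adjusted p = 0.0165 in edgeR).

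Spink5, the inhibitor gene, has 32 exons on chromosome 18, at 43963235 to 44022501 on the plus strand (GRCm38). It stood at 329, 144, 345, 447 and 468 CPM in WT and at 484, 425, 240, 355 and 227 CPM in KI libraries. Both groups covered much the same range, and WT 2 was the lowest library of all. The means were 347 ± 129 and 346 ± 113 CPM (SD, n = 5 each), a log2 fold change of -0.0031 ± 0.32 (SE, with adjusted p = 0.995 in edgeR). A p that misses the threshold does not show that the levels were alike.

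The annotation places an antisense transcript, 2310002F09Rik, over Klk8, Klk10, Klk11, Klk13 and Klk14. By gene span, introns included, the overlap is 382 bases of Klk8, 328 of Klk14 and the full length of Klk10, Klk11 and Klk13. 2310002F09Rik held 26.6 to 81.7 counts per library, at most 3.11 CPM, with a log2 fold change of -0.49 (edgeR adjusted p = 0.151). The strand setting of the authors' counting is not given in the sources used here, so reads of Klk14, and of Klk13 in WT skin, cannot be fully told apart from it. The lowest levels of Klk8, Klk10 and Klk11 in any library were 17.6, 20.3 and 20.6 CPM.

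The libraries of the 2 title prefixes gave unlike values for some of the genes. Within EAS37, 7 of the 9 genes were called higher, all but Klk14 and Spink5, against 17.4% of all genes. Within EAS42, 4 were called higher, Klk6, Klk7, Klk10 and Klk13, against 7.94% of all genes. Klk6 had log2 fold changes of 5.33 and 7.002 in EAS37 and EAS42, Klk7 of 2.39 and 1.49, Klk10 of 2.19 and 2.11, and Klk13 of 5.75 and 3.81. Klk8 (2.47 and 0.83) and Klk11 (1.13 and 0.33) did not pass within EAS42 (edgeR adjusted p = 0.0863 and 0.318).

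The difference between prefixes itself passed for 1 of the 9 genes, Klk5, against 0.866% of all genes. Its KI effect was 1.295 ± 0.19 in EAS37 and -0.20 ± 0.19 in EAS42, a difference of -1.49 ± 0.27 (SE, with adjusted p = 0.0452 in edgeR). The mean level of Klk5 in WT skin was 45.0 CPM in EAS37 and 95.8 CPM in EAS42, and in KI skin 111 and 83.6 CPM. The call was lost on leaving out any of WT 1, WT 3, WT 4, WT 5, KI 1, KI 2 or KI 3, with adjusted p up to 0.201 (edgeR), while the difference stayed between -1.68 and -1.33. Without KI 4, the difference passed for Klk5, Klk8 (-1.91, edgeR adjusted p = 0.0458) and Klk13 (-2.28, 0.0402).

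Spink5 stood on opposite sides in the 2 prefixes. Both EAS37 KI libraries were above the 3 EAS37 WT libraries, and the 3 EAS42 KI libraries were below both EAS42 WT libraries. The log2 fold changes were 0.74 ± 0.35 and -0.74 ± 0.35, and their difference of -1.48 ± 0.50 (SE) did not pass (edgeR adjusted p = 0.188). Fitted on the EAS37 libraries alone, 7 of the 9 genes were called higher, against 15% of all genes. Fitted on the EAS42 libraries alone, 3 were called higher, Klk6, Klk7 and Klk13, against 6.68% of all genes. In that fit Spink5 was called lower, at -0.75 (edgeR adjusted p = 0.0399); in the fit that shares the spread of all 10 libraries the same effect had an adjusted p of 0.196.

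**Figure D2:**
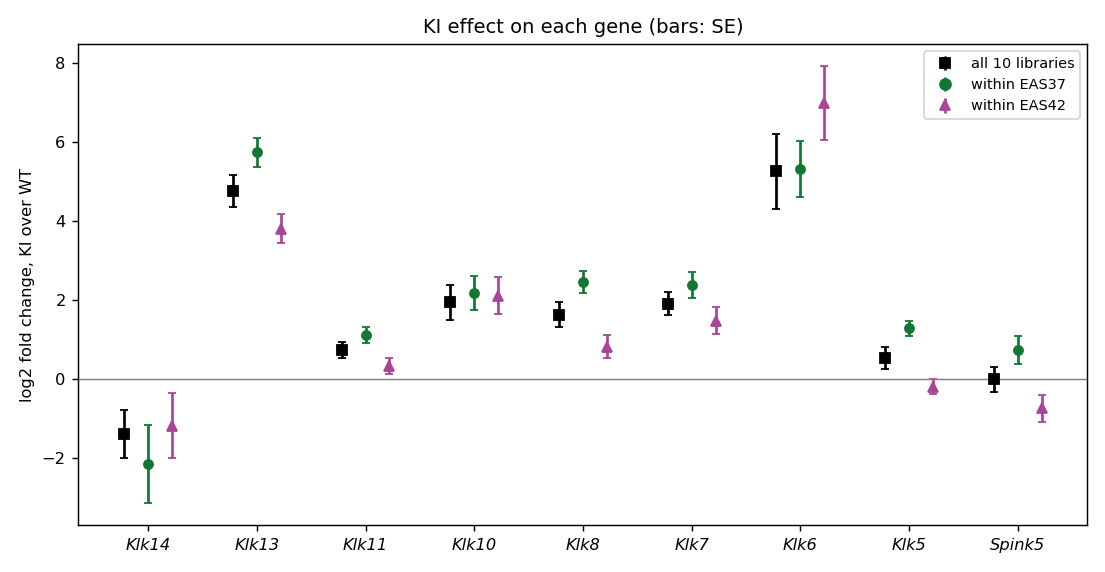
Log2 fold change of KI over WT for each gene, with bars of 1 SE, over all 10 libraries (squares), within EAS37 (circles) and within EAS42 (triangles). Klk6, Klk7, Klk10 and Klk13 are above 0 in both prefixes, and Klk5 and Spink5 are on opposite sides of 0 in the 2 prefixes.

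Levels of different genes were compared on the deposited TPM scale, which divides by transcript length. In WT skin Klk7 was highest at 248 ± 44.4 TPM (SD, n = 5), clear of all the others. Spink5 at 103 ± 37.3, Klk5 at 98.6 ± 45.2 and Klk8 at 86.3 ± 34.4 TPM followed with overlapping ranges, then Klk11 at 46.3 ± 13.9, Klk10 at 43.9 ± 18.7 and Klk6 at 18.1 ± 18.6 TPM. Klk14 at 2.40 ± 1.26 and Klk13 at 0.790 ± 0.348 TPM were lowest. Below Klk7, each gene's range overlapped that of the next.

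In KI skin the order of levels was different. Klk7 led at 869 ± 327 TPM and Klk6 was next at 626 ± 355 TPM, with Klk7 above Klk6 in 5 of 5 libraries although their ranges overlapped. Klk8 at 247 ± 60.8, Klk10 at 156 ± 73.2, Klk5 at 132 ± 26.3, Spink5 at 95.8 ± 25.8 and Klk11 at 72.0 ± 4.15 TPM followed. Klk13 at 18.7 ± 6.50 TPM and Klk14 at 0.882 ± 0.792 TPM were last, and the ranges of Klk11, Klk13 and Klk14 did not overlap. From Klk7 down to Klk11, each range overlapped the next.

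Summed over the 8 kallikreins, the TPM level was 545 ± 72.0 in WT and 2121 ± 842 in KI skin (SD, n = 5 each). Klk7 made up 45.8% of that sum in WT and 41.3% in KI skin. The share of Klk6 was 3.42% in WT and 27.6% in KI skin, and that of Klk5 was 17.7% and 6.76%. Klk8 held 15.7% and 12.4%, Klk10 8.26% and 7.10%, Klk11 8.51% and 3.91%, Klk13 0.142% and 0.897%, and Klk14 0.459% and 0.0625%.

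The summed kallikrein TPM divided by Spink5 TPM was 4.39, 13.0, 5.14, 5.01 and 3.96 in WT and 24.5, 23.9, 20.5, 22.5 and 15.8 in KI libraries. The lowest KI library was above WT 2, whose ratio stood well above those of the other WT libraries and whose Spink5 level was lowest. The difference in the log2 ratio was 1.90, a 3.74-fold higher ratio in KI skin, against a pooled SD between libraries of 0.52. It was 1.87 within EAS37, 2.12 within EAS42, 2.20 without WT 2 and 1.49 when the sum held Klk5, Klk7 and Klk14 alone. The sum adds messenger RNA of proteases with unlike targets, and no protease activity was measured.

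**Figure D3:**
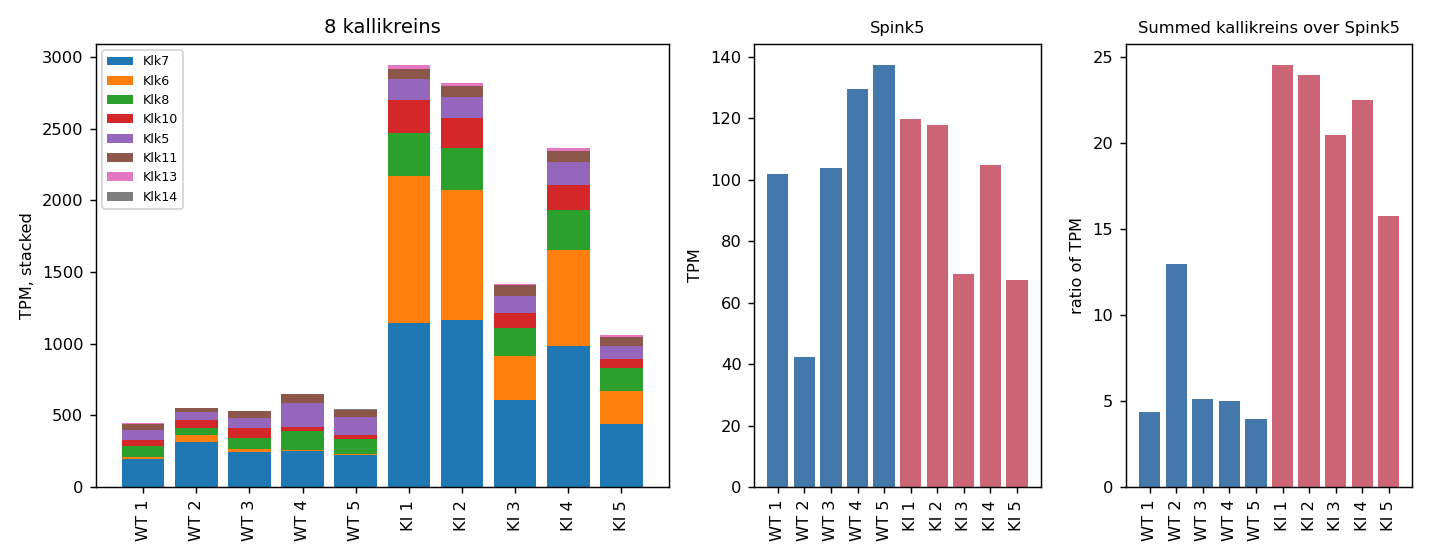
TPM of the 8 kallikreins stacked for each library (left), TPM of Spink5 (middle) and their ratio (right), each axis starting at 0. The ratio is 3.96 to 13.0 in WT and 15.8 to 24.5 in KI libraries, while Spink5 bars overlap between genotypes.

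Several marker lists of skin cell types also held genes that passed, to be read against the 15.6% of all genes called higher and 15.3% called lower. Of 9 suprabasal keratinocyte genes, 4 were higher and 0 lower (median log2 fold change 0.47), and the list's level, its mean log2 CPM, was 7.76 to 9.41 in WT and 9.45 to 9.92 in KI libraries. In it Krt1, a keratin of the spinous layer, was 843 ± 316 CPM in WT and 2126 ± 573 in KI (edgeR adjusted p = 0.0061), and Flg, filaggrin of the granular layer, 60.9 ± 28.4 and 584 ± 141 CPM. Krt10 did not pass. Of 6 genes of activated keratinocytes, 5 were higher and 0 lower, with list levels of 2.91 to 5.97 in WT and 7.46 to 9.55 in KI libraries; Krt6b was 2.23 CPM in WT and 418 CPM in KI skin.

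Of 10 skeletal muscle genes, 1 was lower and 0 higher, with list levels of 10.82 to 11.58 in WT and 7.52 to 10.94 in KI libraries. Their log2 fold changes nevertheless all lay below 0, from -1.55 to -0.94 with a median of -1.31. Of 7 adipocyte genes 5 were lower and 0 higher, with list levels of 6.03 to 7.07 in WT and 4.97 to 5.94 in KI libraries. Of 6 fibroblast genes 3 were lower (8.95 to 9.96 and 8.25 to 9.35), of 3 endothelial genes 3 (5.05 to 5.73 and 4.32 to 4.85) and of 5 Schwann cell genes 5 (6.60 to 7.86 and 5.06 to 6.28), and 0 of these were higher. The neutrophil list had 2 of 6 genes above the filter, Cxcr2 and Csf3r, both higher (-2.91 to -0.996 and 0.51 to 2.63). Cxcr2 had 10 counts over the WT and 380 over the KI libraries, so it met the filter through its KI values alone. The rest of the list was near absent in both genotypes. Elane had 3 counts in WT and 3 in KI libraries, Mpo 0 and 1 and Retnlg 5 and 13, and Ly6g was at 0 in all libraries. Of 5 basal keratinocyte genes 1 was higher and 2 lower, and of 7 sebaceous genes 2 were higher. Apart from the muscle, suprabasal and hair levels, the part of these lists in the kallikrein values was not tested.

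With the muscle level of each library as a covariate, only Klk13 of the 9 genes passed, at a log2 fold change of 4.20 (edgeR adjusted p = 0.00258; 1.62% of all genes called higher). Klk6 was then at 4.11 (0.123), Klk7 at 1.25 (0.0987), Klk8 at 1.20 (0.196), Klk10 at 1.02 (0.347) and Klk11 at 0.68 (0.237), with edgeR adjusted p in parentheses. With the suprabasal level as a covariate, Klk6 (8.27, adjusted p = 0.0244) and Klk13 (3.79, 0.0071) passed as higher and Spink5 as lower (-1.11, 0.0426), with 3.93% of all genes called higher. Klk8 was then at 0.52, Klk11 at 0.05 and Klk5 at -0.45, none of which passed. Klk7 at 1.82 and Klk10 at 2.40 did not pass either (edgeR adjusted p = 0.0681 and 0.128). With the hair level as a covariate, the same 6 kallikreins passed as higher, against 19% of all genes, and Klk14 as lower (-1.65, adjusted p = 0.0397 in edgeR). The muscle and suprabasal levels differed between the genotypes, so a covariate and the genotype cannot be fully told apart in 10 libraries.

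**Figure D4:**
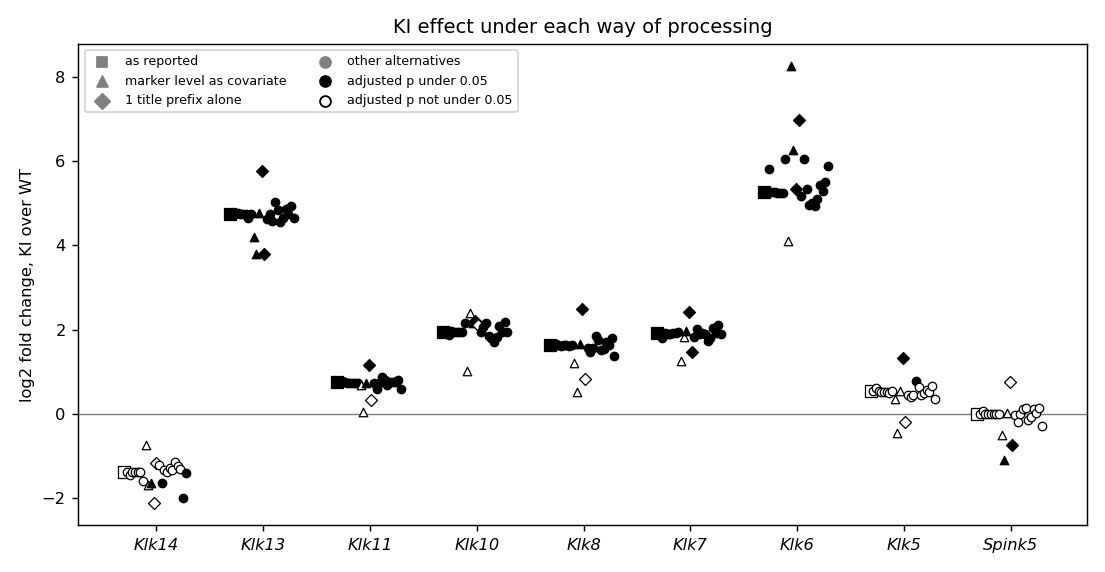
Log2 fold change of KI over WT for each gene under every way of processing, the square being the value as reported, triangles a marker level as covariate, diamonds 1 title prefix alone and circles all others. Filled symbols passed at an adjusted p under 0.05; Klk13 is filled throughout, and Spink5 lies on both sides of 0.

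Within a genotype, the 9 genes did not vary as a single group. After each genotype mean was subtracted from log2 CPM, correlations over the 10 libraries ran from -0.65 to 0.96 in 36 pairs, with a median of 0.36. Klk5 and Klk8 (0.96), Klk8 and Spink5 (0.945), Klk11 and Spink5 (0.90) and Klk8 and Klk11 (0.90) varied together. Klk10 varied with Klk6 (0.83) and Klk7 (0.82), and Klk6 was opposite to Klk11 (-0.62) and Klk5 (-0.51). Both values of a pair come from the same library, with its depth, and the libraries fall into 2 title prefixes, so the correlations are descriptions.

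The same libraries' suprabasal level correlated with Klk5 (0.95), Klk11 (0.95), Klk8 (0.93) and Spink5 (0.87), and with Klk6 at -0.65. The level of activated keratinocyte genes correlated with Klk6 (0.97), Klk10 (0.82) and Klk7 (0.65), and the hair level with Klk6 (0.87). Klk14 was highest with sebaceous (0.64) and fibroblast genes (0.62), and was opposite to the hair level (-0.65) and activated keratinocyte genes (-0.62). Klk7 was most strongly opposite to sebaceous genes (-0.81). The hair level also separates the title prefixes, and its part in these correlations was not tested.

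**Figure D5:**
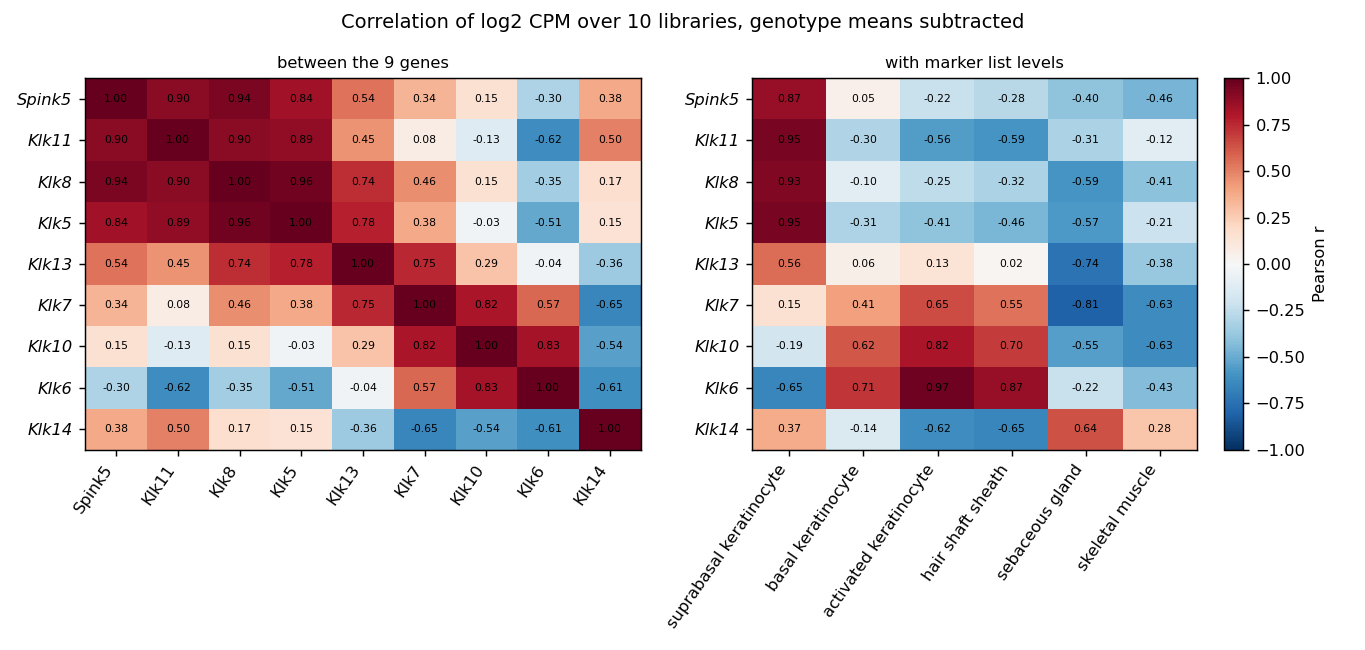
Pearson correlation of log2 CPM over 10 libraries after subtracting genotype means, between the 9 genes (left) and with the levels of 6 marker lists (right). Spink5, Klk11, Klk8 and Klk5 form a block of positive values at the upper left, and Klk6 is highest with activated keratinocyte genes (0.97).

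The 3 genes most like Klk5 in this measure, of 15643 with a mean of at least 1 CPM, were Sdcbp2 (0.99), Hmox1, which encodes heme oxygenase (0.99), and Sdr9c7, a dehydrogenase of epidermal barrier lipids (0.98). Those most like Klk7 were the myosin gene Myo5b, the actin-binding Tagln2 and Ctsl, which encodes the lysosomal protease cathepsin L (each 0.98), of which Tagln2 and Ctsl were also higher in KI skin (log2 fold changes 1.144 and 1.304, edgeR adjusted p = 0.00229 and 0.0122). Those most like Spink5 were Ccsap (0.99), the mitotic kinesin gene Kif14 (0.98) and the receptor kinase gene Tyro3 (0.98). All of these are the highest of 15643 correlations over 10 libraries, so the selection itself raises the values. They are descriptions, and the likeness was not tested. Among the genes most like Klk5 and Spink5, which did not pass themselves, Sdcbp2 (0.92, edgeR adjusted p = 0.0229), Kif14 (1.61, 0.00653) and Tyro3 (0.51, 0.0477) were higher in KI skin. Hmox1 (0.045, 0.7655), Sdr9c7 (0.64, 0.1825), Ccsap (0.53, 0.1072) and, for Klk7, Myo5b (0.47, 0.1548) did not pass. Of all genes tested, 15.6% were called higher.

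Of 44 genes related by family or role, 15 were tested, 5 were higher and 0 lower, against 15.6% higher and 15.3% lower of all genes tested. Among the other kallikreins, Klk9 was tested and was higher, at 13.3 ± 7.13 CPM in WT and 37.2 ± 7.75 in KI skin (SD, n = 5 each; log2 fold change 1.48 ± 0.35, edgeR adjusted p = 0.0118). It lies between Klk10 and Klk8. The Klk9 call was lost with the muscle level (1.28, edgeR adjusted p = 0.224) and the suprabasal level (0.29, 0.355) as a covariate, and its log2 fold change was 2.39 in EAS37 alone and 0.65 in EAS42 alone. Of the 17 below the filter, Klk12 had 16 counts in all WT and 78 in all KI libraries, Klk15 had 40 and 7 and Klk4 had 0 and 10, and 8 of the Klk1b genes were at 0 in every library.

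Among inhibitors, Spink12, a relative of Spink5, was higher, from 18 counts over the WT to 410 over the KI libraries (log2 fold change 4.55 ± 0.69, edgeR adjusted p = 0.00167). Its WT libraries held at most 0.42 CPM. Spink12 therefore met the filter, and counts among the related genes tested and called, through its KI values alone. Spink12 was at 5.15 without WT 2, and at 6.57 with the suprabasal and 3.96 with the muscle level as a covariate, and passed in each. Spink2, also tested, did not pass, with 101 counts over the WT and 55 over the KI libraries (log2 fold change -0.80, edgeR adjusted p = 0.123). Below the filter, Spink7 had 0 counts in WT and 58 in KI libraries and Spink4 had 5 and 100. Spink6 had 41 and 18 and Spink1 had 23 and 17. Spint1, which encodes an inhibitor of matriptase and other membrane serine proteases, was 54.6 ± 10.9 CPM in WT and 77.9 ± 15.5 in KI skin (SD, n = 5 each; log2 fold change 0.51 ± 0.16, edgeR adjusted p = 0.0326), and the call was lost when any 1 of WT 1, WT 3, WT 4, WT 5, KI 1, KI 2 or KI 4 was left out. The Spint1 call was also lost with the muscle level (0.26, edgeR adjusted p = 0.556) and the suprabasal level (0.79, 0.0784) as a covariate. Spint2 and Serpina12, an inhibitor of Klk7, did not pass. Serpina12 was 67.9 CPM in WT and 48.3 CPM in KI skin (edgeR adjusted p = 0.257). In EAS42 it stood at 113 and 95.7 CPM in WT and at 47.2 to 49.0 CPM in KI libraries. In EAS37 it stood at 28.5 to 52.6 CPM in WT and at 44.2 and 53.7 CPM in KI libraries. The difference of its KI effect between prefixes was -1.30 and did not pass (edgeR interaction, adjusted p = 0.0828).

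Of 4 upstream proteases 2 were tested, and neither passed. St14, which encodes matriptase, an activator of kallikrein precursors, was 82.0 CPM in WT and 92.0 CPM in KI skin (edgeR adjusted p = 0.324), and Prss8, prostasin, was 36.3 and 44.5 CPM (0.230). Of the 5 corneodesmosome genes, Dsg1b rose, from 17.7 ± 2.92 to 41.3 ± 16.2 CPM (SD, n = 5 each; log2 fold change 1.22 ± 0.26, edgeR adjusted p = 0.0077). The Dsg1b call was lost with the muscle level (0.45, edgeR adjusted p = 0.308) and the suprabasal level (0.82, 0.280) as a covariate and in EAS42 alone (0.86, 0.0995). Dsc1, which encodes desmocollin, was 42.6 ± 17.2 CPM in WT and 107 ± 52.3 CPM in KI skin (log2 fold change 1.33 ± 0.40, edgeR adjusted p = 0.0319), and the call was lost when any 1 of WT 1, WT 2, WT 3, KI 1, KI 2 or KI 4 was left out. It was also lost for Dsc1 in EAS42 alone (0.34, edgeR adjusted p = 0.685), with the suprabasal (0.17, 0.847) or muscle level (0.46, 0.685) as a covariate, with WT 2 and KI 2 both left out (0.99, 0.111) and with no filter (1.32, 0.0881). Cdsn, corneodesmosin, was 314 CPM in WT and 328 CPM in KI skin (edgeR adjusted p = 0.822). Dsg1a, Dsg1b and Dsg1c are near-identical copies, so how reads were divided between them is uncertain. F2rl1, the receptor PAR2 that kallikreins can cleave, was 63.5 CPM in WT and 84.6 CPM in KI skin (edgeR adjusted p = 0.135), and Tslp did not pass.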

How the data were processed

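Skin RNA of 10 mice was sequenced, 1 library per mouse, from 250 ng of total RNA by a stranded mRNA kit, per the labels' protocols. The submitters' processing notes list STAR 2.5.2b, DESeq2 1.14.1, featureCounts, FastQC, Picard 2.8.1 and the GRCm38 build, without a stated role. Expected counts, TPM and FPKM per gene were computed by the authors, per the file headers, which are those of RSEM, with version, annotation and strandedness not given in the sources used here. No test used the FPKM values deposited.

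The deposited expected counts (10.4% to 12.2% fractional per library) were rounded and tested with edgeR 4.0.16 (R 4.3.3): TMM, filterByExpr (minimum count 10, minimum total 15), robust quasi-likelihood fit of KI against WT, Benjamini-Hochberg adjustment over 17321 genes, threshold 0.05. The SE is the fold change divided by the square root of F. The log2 CPM used a prior count of 2. A fit with genotype, prefix and their interaction gave the values within prefixes. Deposited TPM compared levels between genes, and the ratio of TPM sums has no test. GENCODE M21 named 55141 genes. Motif letters were searched in RefSeq start windows.

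The 9 genes, the 19 lists (131 names, all matched) and the tests were chosen with earlier results of these data known. Genes named are the 9, every related gene that passed, Krt1, Krt10, Flg, Krt6b, Hamp and, for Klk5, Klk7 and Spink5, the 3 most correlated genes; other genes, such as 2310002F09Rik and those given with counts below the filter, were named after their values were seen. Alternatives were DESeq2 1.42.0, limma-voom (limma 3.58.1), other size factors, filters (none, or minimum count 50) and effective length offsets, the prefix as a block or each prefix alone, marker levels as covariates, and leaving out each library. The hair level as covariate and leaving out WT 2 and KI 2 together were chosen after seeing the data. No libraries agreed within sampling noise (lowest chi-square per gene 29.5).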

Additional observations from a re-analysis of the deposited data

Results flagged for a closer look

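Klk14 in KI 5, at 1.82 CPM, lay far from the other 4 KI libraries, which were at 0.190 to 0.635 CPM. The ratio of summed kallikrein TPM to Spink5 TPM in WT 2 was 13.0, far from the other WT libraries at 3.96 to 5.14. Chance flags about 1 in 20 groups in this way.

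The KI effect on Klk5 differed between the title prefixes by -1.49 on the log2 scale (EAS42 minus EAS37; edgeR interaction, adjusted p = 0.0452). For Spink5 every KI library was above every WT library in EAS37 and below every WT library in EAS42. The difference between prefixes was -1.48 on the log2 scale and did not pass the test (edgeR interaction, adjusted p = 0.188).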

How the results depend on the processing

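The 6 kallikreins called higher kept their direction under every alternative run. Of the 9 genes, 6 to 7 passed on leaving out each library in turn, 1 with the muscle level and 3 with the suprabasal level as a covariate. Spink5, at a log2 fold change near 0, changed sign under DESeq2 (0.0023), limma-voom (0.056), RLE size factors (0.00094), the hair level as covariate (0.0081) and EAS37 alone (0.76), and ranged from -0.20 to 0.13 without single libraries. Klk5 changed sign with the suprabasal level as covariate (-0.45) and in EAS42 alone (-0.21). Of the related genes, 9 passed under DESeq2, 1 with the muscle and 8 with the hair level as covariate, 10 in EAS37 alone, and 3 to 9 without single libraries, all higher. With the suprabasal level 2 passed, 1 higher and 1 lower, and in EAS42 alone 6 passed, 5 higher and 1 lower. Of all genes, 417 passed with the muscle level, 1467 with the suprabasal level and 2488 in EAS42 alone, against 5351 as reported. For the difference between prefixes, 0 to 3 of the 9 genes passed without single libraries. The cause of these changes was not tested. With the prefix as a block, 6 of the 9 genes passed. No paired analysis was possible because replicate numbers follow accession order and pair no mice. Depth limits Klk14, at 4.47 counts in its lowest library, and Klk13 in WT skin. The minimum count of 50 leaves out Klk14 and, among the related genes called higher, Spink12.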
